A study of Rattus norvegicus with 4 samples.

Results

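Expression of 9 enzyme genes of serine, sulfur and glutamine metabolism (Cbs, Cth, Phgdh, Psat1, Psph, Shmt1, Shmt2, Asns and Glul) was compared between 2 layers of the rat crista ampullaris. This sensory patch in a semicircular canal responds to head rotation. The 9 genes, of 12325 that the array annotation named, were chosen by pathway, with the strong difference of Cbs between the layers already known. For that reason the values of Cbs are described without a test. The supporting cell layer was the deeper one, the cell bodies above the basal lamina, which laser capture microdissection took second. The hair cell layer was taken first and held hair cells of types I and II, along with cytoplasm of the supporting cells lying among them. Polyadenylated RNA was amplified linearly and hybridised to rat whole-genome slides in 1 colour, 2 for each layer and 4 in all. The labels give no strain, age, sex or treatment, and cells were captured by morphology. Whether replicate arrays stand for different animals or captures is not said, so every p-value measures the spread between these arrays, which may be technical. Fewer cells of a type and less RNA per cell cannot be told apart in such tissue.

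Cbs condenses homocysteine with serine into cystathionine, and Cth splits cystathionine to release cysteine. Together they form the transsulfuration pathway, and both can also produce hydrogen sulfide. Phgdh, Psat1 and Psph act in that order to make serine from a glycolytic intermediate. Shmt1 in the cytosol and Shmt2 in mitochondria convert serine to glycine and pass the released carbon unit to folate. Asns makes asparagine with the amide nitrogen of glutamine. Glul, glutamine synthetase, joins glutamate and ammonia and is known from glia and from the supporting cells of the inner ear, which take up glutamate released by hair cells.

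Of the 9 genes, 8 had a named probe, with 11 probes in all among 33849 gene probes, and Phgdh had none. As 16934 gene probes had no name, whether the array carries a Phgdh probe is not known. The scanner software flags a spot as above background or not, and a probe was tested when it was above background on at least 2 of the 4 arrays. By this rule 7 probes of 6 genes were tested, among 16483 probes and 7768 named genes. The probes of Cth and Shmt1 were not. Median raw intensities were 12.1 and 12 for the supporting cell layer, against 26.5 and 16.98 for the hair cell layer, so raw values were compared after quantile normalization, and both scales are given below. The lowest normalized intensity of a detected probe was 26.6 and 28.3 for the supporting cell layer, against 13.9 and 18.5 for the hair cell layer. The same dim signal could therefore be detected in the hair cell layer and missed in the supporting cell layer.

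The promoter windows of 4 members are shown because Cbs and Psph lay on opposite sides of the comparison, while Asns and Psat1 were both higher in the supporting cell layer after normalization. Each runs 5′ to 3′ from 250 bases before to 50 bases after the gene's start in the RefSeq annotation of GRCr8. The windows are chr20:9733876-9734175 on the minus strand for Cbs, chr12:32526841-32527140 on the plus strand for Psph, chr4:36769366-36769665 on the minus strand for Asns and chr1:222645359-222645658 on the minus strand for Psat1. Capitals mark matches on either strand to the GC box (GGGCGG), the CCAAT box (CCAAT), the E-box (CACGTG) or the core of the C/EBP-ATF response element (TGATGNAA), which is the kind of site through which ATF4 acts on amino acid genes.
Cbs: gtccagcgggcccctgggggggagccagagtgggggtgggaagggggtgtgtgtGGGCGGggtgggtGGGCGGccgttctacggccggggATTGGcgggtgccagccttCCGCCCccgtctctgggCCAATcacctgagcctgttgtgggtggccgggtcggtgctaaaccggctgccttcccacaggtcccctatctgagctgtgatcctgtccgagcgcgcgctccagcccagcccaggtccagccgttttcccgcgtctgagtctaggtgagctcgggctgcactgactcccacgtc
Psph: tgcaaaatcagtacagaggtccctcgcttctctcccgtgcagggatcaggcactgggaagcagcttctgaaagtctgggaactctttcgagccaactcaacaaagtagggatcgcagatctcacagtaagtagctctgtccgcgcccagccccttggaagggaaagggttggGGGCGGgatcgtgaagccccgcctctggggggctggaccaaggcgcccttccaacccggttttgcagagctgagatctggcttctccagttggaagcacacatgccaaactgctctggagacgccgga
Asns: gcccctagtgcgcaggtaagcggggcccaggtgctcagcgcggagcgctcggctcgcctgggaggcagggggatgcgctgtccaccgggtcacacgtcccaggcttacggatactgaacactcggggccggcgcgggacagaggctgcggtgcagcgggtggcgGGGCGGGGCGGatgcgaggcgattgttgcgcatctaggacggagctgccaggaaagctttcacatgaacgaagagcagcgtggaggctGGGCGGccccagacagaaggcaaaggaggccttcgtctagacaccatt
Psat1: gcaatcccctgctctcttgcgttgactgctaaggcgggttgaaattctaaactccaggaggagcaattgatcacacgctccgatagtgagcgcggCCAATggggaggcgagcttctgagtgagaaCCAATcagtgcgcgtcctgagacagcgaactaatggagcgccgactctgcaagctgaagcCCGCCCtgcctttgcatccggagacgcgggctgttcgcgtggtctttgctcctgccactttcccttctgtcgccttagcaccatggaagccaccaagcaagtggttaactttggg

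The Cbs window held 3 GC boxes and 2 CCAAT boxes, and the Psph window held 1 GC box. The Asns window held 3 GC boxes, of which 2 overlapped by their shared end base, and the Psat1 window held 1 GC box and 2 CCAAT boxes. Across all 33469 promoter windows of this length, 33.1% held a GC box and 37.5% a CCAAT box. The C/EBP-ATF core was found in 4.0% of all windows and in none of the 10 windows of the 9 members, which says only that these letters are absent from the windows. The E-box, present in 6.4% of all windows, was found in those of Cth and Shmt1.

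Cbs had 2 probes, and they gave different pictures. The probe designed on an expressed sequence tag (GE1145670) read raw intensities of 325 and 295 in the supporting cell layer, both above background, against 0.966 and 9.13 in the hair cell layer, neither above background. After normalization these were 416 and 399.5 in the supporting cell layer, against 0.274 and 9.08 in the hair cell layer. The layers did not overlap. On this scale the supporting cell layer was at least 25.4-fold higher, a limit set by the lowest detected signals of the hair cell layer arrays. The limit was lower under some other settings, given at the end. The probe designed on the RefSeq messenger RNA (GE19798) read 5.13 and 1.22 in the supporting cell layer, against 2.70 and 4.57 in the hair cell layer, all below the software's background call. The difference of Cbs therefore rests on 1 probe, which the array annotation ties to the gene through the same transcript cluster. Such splits were common on this array: of 2894 genes with several named probes and at least 1 of them detected on 2 or more arrays, 60.2% had another probe detected on no array.

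**Figure D1:**
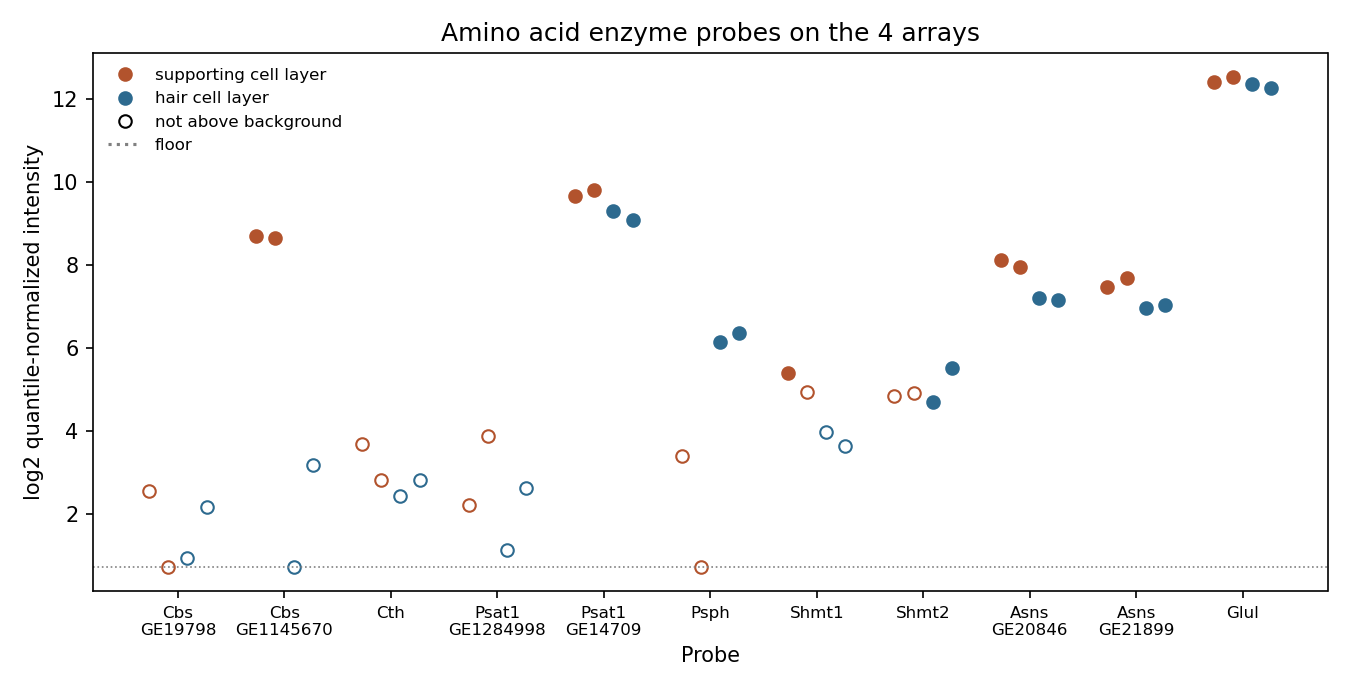
Each point is the log2 quantile-normalized intensity of a probe (horizontal axis) on 1 array, with the supporting cell layer left of the hair cell layer, filled where the probe was above background and open where it was not; the dotted line is the floor put under low values. The Cbs probe GE1145670 was above background on both supporting cell layer arrays alone, Psph and Shmt2 on both hair cell layer arrays alone, and Psat1 (GE14709), Asns and Glul on all 4 arrays.

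Detection on both supporting cell layer arrays and on neither hair cell layer array, as seen for Cbs, was found for 934 of all gene probes (2.8%). Of 7508 other tested genes, the 3 with profiles nearest to that of Cbs over the 4 arrays were the interferon-induced Isg15, the basal lamina chain gene Lama1 and Txlnb. Their root mean square differences from Cbs were 0.456, 0.596 and 0.704 on the log2 scale, after each gene was centred on its own mean. Isg15 read 261 and 257 in the supporting cell layer, against 1.30 and 3.72 in the hair cell layer. Lama1 read 159.6 and 157 in the supporting cell layer, against 0.572 and 3.45 in the hair cell layer. With 4 arrays this likeness describes little more than the shared pattern of detection.

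Cth, the next enzyme of transsulfuration, was at background everywhere. Its probe read raw intensities of 10.1 and 6.17 in the supporting cell layer, against 6.59 and 7.11 in the hair cell layer. The layers overlapped, and no difference was detectable at this signal.

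In the serine pathway the 2 measured enzymes differed in direction on the normalized scale, but not without scaling between arrays. Psph, the phosphatase of the last step, read raw intensities of 8.75 and 1.23 in the supporting cell layer, neither above background, against 94.1 and 91.9 in the hair cell layer, both above background. After normalization the values were 10.4 and 1.65 in the supporting cell layer, against 70.4 and 81.7 in the hair cell layer, with no overlap. Psph was at least 2.76-fold lower in the supporting cell layer. Its adjusted p over all probes was 0.0364 by limma with Benjamini-Hochberg adjustment, but the probe entered the test through the hair cell layer alone, so its direction was already fixed and the p adds no support. Of all 16483 tested probes, 33.5% were higher in the supporting cell layer by this test, 33.9% lower and 67.4% either. The call of Psph was lost when either hair cell layer array was left out (adjusted p = 0.150 and 0.160) or when all probes were tested without a filter (adjusted p = 0.1). A pattern of detection in the hair cell layer alone was found for 2838 gene probes (8.4%).

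Psat1, the aminotransferase of the middle step, also had 2 probes. GE14709 was bright, with normalized intensities of 802 and 885 in the supporting cell layer, against 629 and 542 in the hair cell layer. Its change was 0.53 ± 0.12 on the log2 scale (supporting minus hair cell layer, SE from limma, 2 arrays per layer), and it passed the test (adjusted p = 0.0305 by limma). The raw intensities were 624 and 651 in the supporting cell layer, against 832 and 630 in the hair cell layer, and there the layers overlapped. Without scaling between arrays the change was -0.18. The call was also lost when any array was left out, with adjusted p from 0.0581 to 0.104 by limma. The second probe (GE1284998) was below background on all 4 arrays, with raw intensities from 2.99 to 10.9.

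The serine hydroxymethyltransferases were near the detection limit. Shmt1 read raw intensities of 31.96 and 22.3 in the supporting cell layer, against 23.7 and 12.5 in the hair cell layer, and 1 supporting cell layer array alone called it above background. After normalization the values were 41.6 and 30.7 in the supporting cell layer, against 15.7 and 12.5 in the hair cell layer. They did not overlap on that scale and overlapped on the raw one, and the probe was not tested. Shmt2 was above background on both hair cell layer arrays alone, with normalized intensities of 28.7 and 30.1 in the supporting cell layer, against 25.8 and 45.7 in the hair cell layer. The supporting cell layer values lay between those of the hair cell layer, and Shmt2 did not pass the test (change -0.22 ± 0.33, adjusted p = 0.573 by limma). Without hair cell layer replicate 2 the change was 0.19, and without hair cell layer replicate 1 it was -0.68 and passed. On the raw scale without scaling it was -1.04 and passed.

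Asns was detected on all 4 arrays by both of its probes. GE20846 read normalized intensities of 278 and 248 in the supporting cell layer, against 147 and 141.5 in the hair cell layer. GE21899 read 177 and 204 in the supporting cell layer, against 123.5 and 129 in the hair cell layer. Neither probe's layers overlapped, and both passed the test by limma, with changes of 0.86 ± 0.10 (adjusted p = 0.0061) and 0.59 ± 0.11 (adjusted p = 0.0187). The size of the change, and for GE21899 its direction, depended on the scaling between arrays. Raw intensities of the brighter probe were 215 and 184 in the supporting cell layer, against 192 and 161 in the hair cell layer, and they overlapped. Raw intensities of the other probe were 139 and 153 in the supporting cell layer, against 162 and 146 in the hair cell layer, and overlapped as well. Without scaling the change of the brighter probe was 0.18 and did not pass, and that of the other probe was -0.08.

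Glul was the brightest of the members, its probe being at the 99.8th percentile of all gene probes by mean intensity. Its normalized intensities were 5412 and 5834 in the supporting cell layer, against 5264 and 4889 in the hair cell layer. The layers did not overlap, but the change of 0.15 ± 0.09 did not pass the test (95% interval -0.12 to 0.42, adjusted p = 0.223 by limma). Raw intensities were 4713 and 4883 in the supporting cell layer, against 6321 and 5302 in the hair cell layer, which is the opposite order. Dividing each array by its median gave a change of 0.51, which did not pass either. The changes seen for Asns lay outside the interval for Glul, which holds for the quantile-normalized values alone. The Asns interval was 0.57 to 1.15 for GE20846, while that for GE21899, 0.26 to 0.92, overlapped the interval for Glul. Asns was not tested against Glul. The Glul change of 0.51 lay outside the Glul interval as well, so that interval does not cover the choice of scaling.

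**Figure D2:**
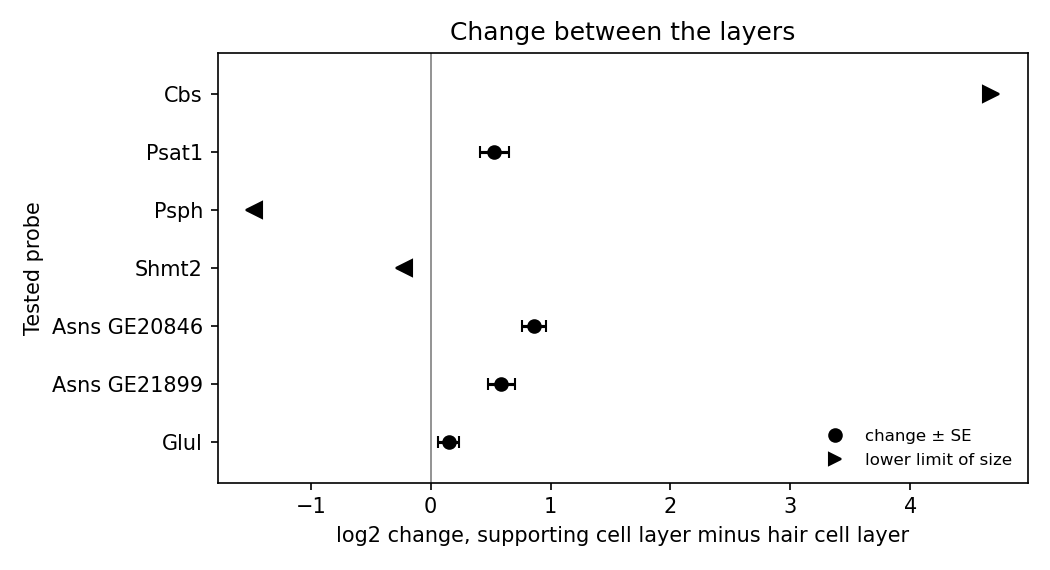
The log2 change (supporting cell layer minus hair cell layer) is shown for each tested probe, as a point with its standard error where the probe was detected in both layers and as an arrowhead at the lower limit of its size where it was not. Cbs lies at a limit of 4.67 and Psph at -1.47, and the measured changes of Psat1, Asns and Glul lie between 0.15 and 0.86. The arrowhead of Shmt2 lies at its fitted change of -0.22, which is no true limit, since its layers overlapped.

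**Figure D3:**
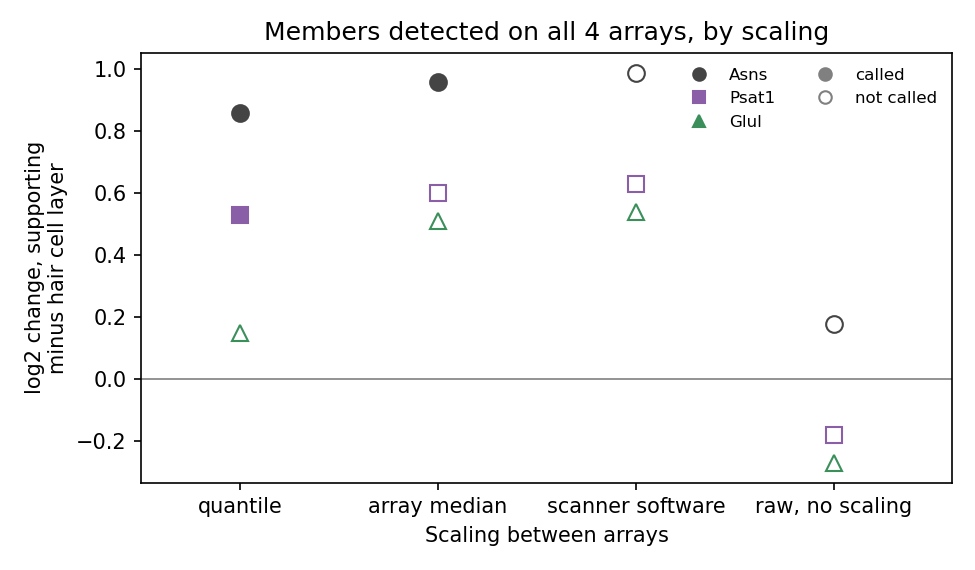
The log2 change of the 3 members detected on all 4 arrays is shown under 4 ways of scaling the arrays, filled where the change passed the test and open where it did not. The changes lie above 0 under the 3 scalings and between -0.27 and 0.18 without scaling, where the median change of all genes was -0.79.

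Counting each gene at its brightest tested probe, by mean log2 intensity over the 4 arrays, and leaving out Cbs, 2 of the 5 tested members were higher in the supporting cell layer, Asns and Psat1, and Psph was lower. Of all 7768 tested genes, 28.2% were higher by the same call, 37.2% lower and 65.4% either, so nothing is read from the members' count. Cbs, Psph and Shmt2 passed the filter through 1 layer alone. On normalized values 89.1% of tested genes had layers that did not overlap. The median change of all tested genes was -0.10, -0.01 when arrays were divided by their medians and -0.79 without scaling.

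The neighbouring pathways were examined through 7 gene lists, on genes outside the 9 members. Of 124 genes, 70 were tested, of which 11 (15.7%) were called higher and 35 lower in the supporting cell layer, against 28.2% and 37.2% of all tested genes. Among the 35 lower genes, 10 were undetected on both supporting cell layer arrays, where a gene passing the filter through the hair cell layer had to look lower. The median change of the 70 genes was -0.48, or -0.37 with genes undetected in a layer held at their limits. For all tested genes these were -0.10 and -0.08.

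The methionine cycle, which makes the homocysteine that Cbs uses, was the list with most genes higher in the supporting cell layer. Of 9 tested genes, 6 were higher and 2 lower, with a median change of 0.87. This depended on the scaling: on unscaled raw intensities Mtap differed by 1.09 and the others of the 6 by 0.50 or less, and 2 genes of all the neighbouring lists were called higher. Mat2a, which makes the methyl donor S-adenosylmethionine, read 93.2 and 78.0 in the supporting cell layer, against 43.3 and 49.6 in the hair cell layer (change 0.88 ± 0.14, adjusted p = 0.0138 by limma), but did not pass without hair cell layer replicate 1 (0.79) or 2 (0.97), nor without scaling (0.22). Mtap, which recycles the methylthio group left over from polyamine synthesis, read 1753 and 1869 in the supporting cell layer, against 536 and 508 in the hair cell layer (change 1.79 ± 0.08, adjusted p = 0.00156 by limma). Ahcyl1, a relative of the enzyme that releases homocysteine, changed by 1.20 ± 0.20, and by 1.03 without hair cell layer replicate 2, where it did not pass. The other Ahcyl1 probe was below background on all arrays, with values in the opposite order. Gnmt, which uses S-adenosylmethionine to methylate glycine, read 45.0 and 40.5 in the supporting cell layer, against 209 and 226 in the hair cell layer (change -2.35 ± 0.10, adjusted p = 0.00146 by limma). Ahcy, which releases homocysteine, was undetected in the supporting cell layer and at least 2.17-fold lower there.

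Among 9 tested genes of cysteine and sulfide metabolism 1 was higher and 4 were lower in the supporting cell layer, with a median change of -0.67, or -0.06 with undetected genes at their limits. Csad, which turns cysteine sulfinate toward taurine, read 1998 and 1936 in the supporting cell layer, against 1495 and 1501 in the hair cell layer. Its change of 0.39 ± 0.07 passed the test (adjusted p = 0.0170 by limma), but not when any array was left out (adjusted p from 0.0505 to 0.0773), and without scaling between arrays it was -0.28. The aspartate aminotransferase Got1 was lower in the supporting cell layer by both of its probes, with changes of -1.42 ± 0.09 and -1.90 ± 0.15. Papss2, which makes the sulfate donor for sulfation, changed by -0.67 ± 0.10. It did not pass with arrays divided by their medians, with the scanner software's values or without a filter. Csad and Papss2 each also had a probe below background on all arrays.

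Of 6 tested serine and glycine genes 0 were higher and 2 were lower in the supporting cell layer by limma. Both were phosphatidylserine synthases, which put serine into phospholipid, with changes of -2.43 ± 0.17 for Ptdss2 and -0.71 ± 0.07 for Ptdss1. The call of Ptdss1 was lost with arrays divided by their medians, with the scanner software's values and without a filter. Of 8 tested folate genes 0 were higher and 4 were lower. The folate carrier Slc19a1 was at least 5.78-fold lower in the supporting cell layer, where it was undetected. Ggh, which trims folate polyglutamates, read 342 and 334 in the supporting cell layer, against 879 and 840 in the hair cell layer (change -1.35 ± 0.07, adjusted p = 0.00188 by limma). The trifunctional cytosolic enzyme Mthfd1, which works on the carbon unit that serine hydroxymethyltransferase delivers, read 103 and 110.5 in the supporting cell layer, against 206 and 209.6 in the hair cell layer (change -0.96 ± 0.08, adjusted p = 0.00338 by limma). Mthfd1 did not pass with the scanner software's values. The mitochondrial Mthfd2 was not detected on any array.

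The glutamine, glutamate and asparagine list was divided, with 3 of 13 tested genes higher in the supporting cell layer and 6 lower. Prodh, the mitochondrial proline oxidase, read 378 and 406 in the supporting cell layer, against 127 and 122 in the hair cell layer (change 1.66 ± 0.08, adjusted p = 0.00168 by limma), and its other probe also passed in this direction. Ctps1, which uses glutamine to make CTP, changed by 0.79 ± 0.09. It did not pass with the scanner software's values or without a filter. Gmps, which uses glutamine to make GMP, entered the test through the hair cell layer alone. It read 31.6 and 30.2 in the supporting cell layer, neither above background, against 125 and 131 in the hair cell layer. By the fit it was 4.15-fold lower in the supporting cell layer. The other Gmps probe was below background on all arrays. Glutamate dehydrogenase Glud1 read 38.8 and 42.3 in the supporting cell layer, against 80.4 and 77.6 in the hair cell layer (change -0.96 ± 0.09, adjusted p = 0.00391 by limma). It did not pass with the scanner software's values, and its second probe was below background on all arrays.

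Of 9 tested amino acid transporters all 9 were called lower in the supporting cell layer at the probe with the highest mean log2 intensity, which for Slc6a9 depended on the choice of probe, with a median change of -1.44, or -1.08 with undetected genes at their limits. Of these, 5 were undetected in the supporting cell layer and 4 were detected on all 4 arrays. The cystine and glutamate exchanger Slc7a11, which imports the oxidized form of cysteine, read 266 and 258 in the supporting cell layer, against 748 and 672.5 in the hair cell layer (change -1.44 ± 0.09, adjusted p = 0.00228 by limma). Its 2 other probes were below background on all arrays. The serine and alanine transporter Slc1a4 was at least 9.08-fold lower in the supporting cell layer and the large neutral amino acid transporter Slc7a5 at least 2.11-fold lower. Both entered the test through the hair cell layer alone. The other Slc1a4 probe was below background on all arrays. It read 9.09 and 20.5 in the supporting cell layer, against 4.96 and 3.45 in the hair cell layer, the opposite order. The glycine transporter Slc6a9 had probes of opposite direction. GE1126789 read 20.4 and 21.6 in the supporting cell layer, against 112 and 116 in the hair cell layer, whereas GE1272697, which had the higher mean on the linear scale, read 257.5 and 242 in the supporting cell layer, against 1.87 and 5.37 in the hair cell layer. The glutamine transporter Slc1a5 was not detected on any array.

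ATF4 is a transcription factor that raises amino acid synthesis and transport genes, Asns, Psat1 and Psph among them, when amino acids run short. Of 17 tested genes of its branch, which include its upstream kinases, its targets and aminoacyl-tRNA synthetases, 1 was higher in the supporting cell layer and 9 were lower, with a median change of -0.41. Atf4 itself read 231 and 228 in the supporting cell layer, against 357 on the 1 hair cell layer array with a usable spot. The difference was -0.64, and with 1 array in a layer no test is given for it, although the count of 9 includes it. The listed kinases that start the response, Eif2ak4 and Eif2ak3, were lower in the supporting cell layer. Another Eif2ak3 probe was below background on all arrays. Changes were -2.68 ± 0.14 for Eif2ak4, which senses uncharged tRNA, and -1.90 ± 0.07 for Eif2ak3, which senses stress of the endoplasmic reticulum. Their substrate Eif2s1 changed by 0.46 ± 0.09, which passed the test (adjusted p = 0.0204 by limma), but not when any array was left out (adjusted p from 0.052 to 0.0761), and by -0.24 without scaling between arrays. The ATF4 target Ddit3 read 367 and 336 in the supporting cell layer, against 352 and 314 in the hair cell layer. It missed the threshold (change 0.08 ± 0.10, adjusted p = 0.534 by limma). On the normalized scale Asns and Psat1 stood on the other side of 0 from most of this list, and Psph on the same side. Without scaling between arrays Psat1 changed by -0.18, and the Asns probe GE21899 by -0.08. The part of ATF4 in these differences was not tested.

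**Figure D4:**
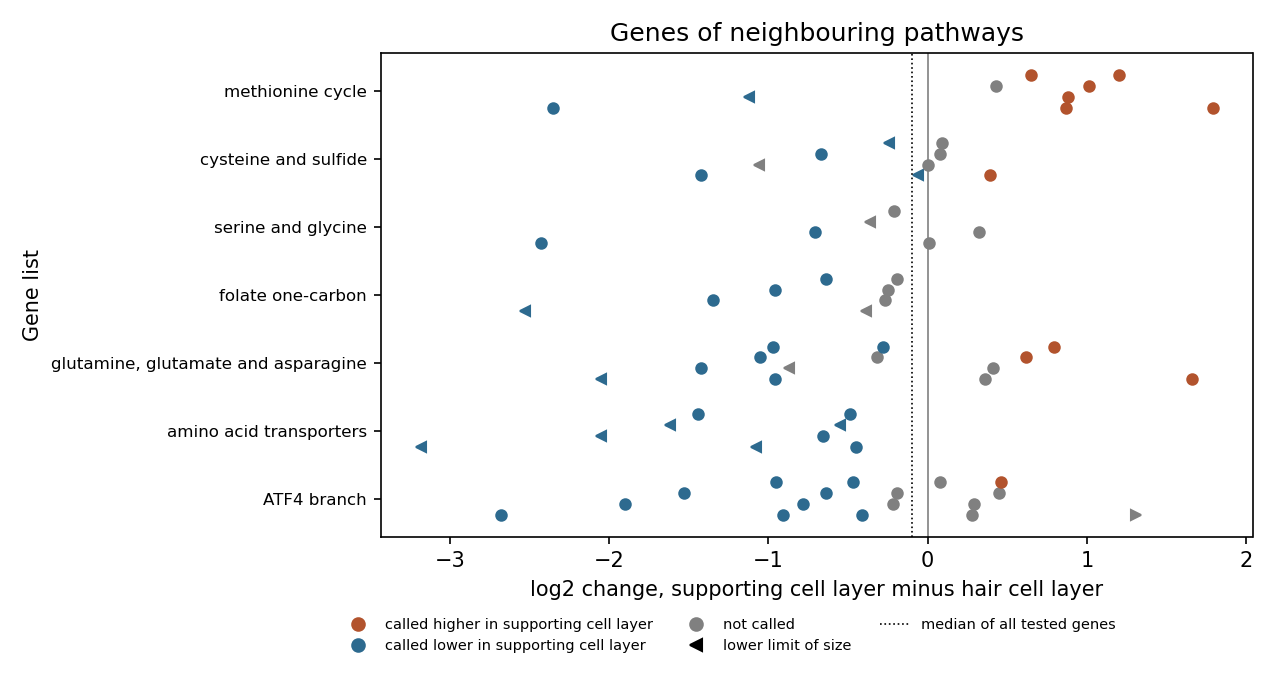
Each symbol is a tested gene of a neighbouring pathway at its brightest probe, placed by its log2 change (supporting cell layer minus hair cell layer), as a circle where measured in both layers and an arrowhead at the lower limit where not above background in one; the dotted line is the median of all tested genes. All 9 transporters lie below 0, Slc6a9 by the choice of its probe, while 6 of the 9 methionine cycle genes were called above it.

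Markers of the captured cells and of neighbouring tissue differed between the layers too. Of 10 tested hair cell markers 9 were lower in the supporting cell layer, such as Cdh23. Of these, 7 were detected on all 4 arrays, and 2, Cdh23 among them, entered the test through the hair cell layer alone. The list's summed normalized intensities were 3065 and 2952 in the supporting cell layer, against 8543 and 9110 in the hair cell layer. Supporting cell markers were divided, 4 of 10 higher, such as Tecta, and 4 lower, such as Otog, with sums of 15710 and 16220 in the supporting cell layer, against 18960 and 19200 in the hair cell layer. Of 9 tested endothelial and pericyte markers 7 were higher, such as Tie1, and Vwf was lower. Of the 7, 4 were detected on all 4 arrays and 2 entered the test through the supporting cell layer alone. Cldn5, also among the 7, had 1 usable supporting cell layer array. Over the genes with a spot on all 4 arrays the list's sums were 1558 and 1587 in the supporting cell layer. Those of the hair cell layer were 521.6 and 577, and Kdr was not detected on any array. Connective tissue markers were higher in 3 of 5 tested, such as Mgp, with sums of 2328 and 2366 in the supporting cell layer, against 954.5 and 974.6 in the hair cell layer, and Lum and Pdgfra were not detected on any array. Neuronal markers were higher in 3 of 5, such as Gria2, and lower in 2, such as Nefl. Both lower genes entered the test through the hair cell layer alone, and Nefh was undetected throughout. The neuronal sums were 769.7 and 762 in the supporting cell layer, against 280.2 and 294 in the hair cell layer. Without Gria2 these sums were 195 and 188 in the supporting cell layer, against 247 and 252 in the hair cell layer, so the order of the neuronal sums turned on that gene. Of 6 tested Schwann cell markers 2 were higher, such as Prx, and 2 lower, such as Sox10, with sums over genes with a spot on all 4 arrays of 3599 and 3551 in the supporting cell layer, against 3155 and 3156 in the hair cell layer, and Mbp undetected throughout. Of 5 immune markers 2 were called higher, among them Csf1r, which had 1 usable supporting cell layer array, and 2 lower, among them Aif1. Both lower genes entered the test through the hair cell layer alone, and Ptprc and Lyz2 were undetected throughout. Over the genes with a spot on all 4 arrays the immune sums were 125 and 112 in the supporting cell layer. Those of the hair cell layer were 295 and 267. Of 3 blood markers Ahsp was higher, and it entered the test through the supporting cell layer alone. The blood sums were 226 and 225 in the supporting cell layer, against 44.2 and 75.3 in the hair cell layer. The part of these cells in the differences of Cbs, Psph and Asns was not tested.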

How the data were processed

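Per the labels' protocols, RNA of laser-captured tissue was extracted with a commercial kit, and its polyadenylated fraction was amplified linearly into biotin-labelled cRNA. Per the file headers, the deposited intensity values came from CodeLink Expression Analysis 4.0.0.23520. The raw intensity has some values below 0, as background-subtracted signals do, and the normalized intensity is the raw one divided by the array's median. Other steps are not given in the sources used here.

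Gene names were taken from the platform annotation, with symbols updated to the RefSeq annotation of GRCr8. Of 33849 gene probes, 16723 were named this way and 192 through a RefSeq accession. The deposited series table served only to match probe numbers, on the 3 columns equal to the scanner values; that of supporting cell layer replicate 2 is shifted by 2 rows. Spots flagged as contaminated, irregular or masked in manufacturing were left out. Raw intensities were quantile-normalized, raised to a floor of 0.1 of the median and taken to log2. The model was limma 3.58.1 in R 4.3.3 (lmFit and eBayes, two-sided) over all tested probes, called at an adjusted p under 0.05, and it was tested on simulated data. A lower limit of fold sets the brighter layer's mean against, per array, the higher of the lowest detected signal and the probe's own value. Where the own value was the higher on both arrays, as for Gmps and Shmt2, this is the fitted change and no true limit. Some undetected spots read above their array's lowest detected signal, so a limit is not a strict minimum. The number of arrays limits the precision.

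The members and gene lists were chosen with earlier results of these data known. Named genes were all members, the 2 largest called changes per direction of each neighbouring list (1 for markers), ranked by the lower limit where a layer was undetected, 12 well known genes whatever their value (1 is not reported here), and the 3 genes nearest to Cbs. Alternatives covered scaling, filter, floor, flags, variance trend, probe averaging, replicate block and each array left out. A further 2 alternatives were chosen after seeing the data: raw values without scaling, and a floor at the highest detection limit. Normexp background correction was not run, as separate spot and background signals were not used here.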

Additional observations from a re-analysis of the deposited data

How the results depend on the processing

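Only 4 arrays stood behind each value, and Psph and Shmt2 were undetected in the supporting cell layer. Against 5527 probes higher and 5585 lower in the supporting cell layer, the counts were 3232 and 3639 with the scanner software's values, 3277 and 3377 without a filter, and 2366 and 8846 without scaling between arrays, while 3598 were lower among probes detected on all 4 arrays; leaving out 1 array gave 3916 to 4462 higher and 3270 to 5532 lower. Among the members other than Cbs, 2 were higher and 1 lower. The higher count was 1 with arrays divided by their medians and with the replicate block, and 0 with the scanner software's values, without a filter and without scaling; the lower count was 0 without a filter, among probes detected on all 4 arrays and with the replicate block, and 2 without scaling. Leaving out 1 array gave 1 higher each time and 0 to 1 lower. The related genes, 11 higher and 35 lower, numbered 5 and 20 with the scanner software's values and 5 and 19 without a filter, 6 were higher with the replicate block and 2 without scaling, and leaving out 1 array gave 9 to 10 and 21 to 35.

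The log2 limit of Cbs, 4.67, was 4.74 with array medians, 4.77 with the scanner software's values, 3.85 with a floor at the highest detection limit, 3.96 without scaling and 4.57 to 4.80 with 1 array left out. Psat1 did not pass at 0.60 with array medians, 0.63 with the scanner software's values, 0.53 without a filter and with the replicate block, and 0.42 to 0.64 with 1 array left out, and turned to -0.18 without scaling. The fitted values of Psph rest on undetected readings, and its supported limit is -1.47. They did not pass at -4.19 without a filter and with the replicate block, and ran from -5.50 to -2.89 with 1 array left out. Asns did not pass at 0.99 with the scanner software's values, 0.86 without a filter and 0.18 without scaling, and ran from 0.79 to 0.96 with 1 array left out. Glul turned to -0.27 without scaling. Shmt2 passed at -1.04 without scaling and ran from -0.68 to 0.19 with 1 array left out. The cause of these shifts was not tested, except that fewer arrays enter when 1 is left out. Of the other named genes, Slc6a9 turned to 1.93 as a mean over probes, 3.14 with the floor at the highest detection limit, and 5.49 and 6.98 without hair cell layer replicate 1 or 2, where its other probe was the brightest; its range with 1 array left out was -2.44 to 6.98. Without scaling Csad turned to -0.28, Eif2s1 to -0.24 and Ddit3 to -0.62, and Ddit3 ran from 0 (without hair cell layer replicate 2) to 0.16 with 1 array left out. In all, 492 alternative values of these genes kept direction and side of the threshold and 69 kept direction but did not pass. Calls were lost without hair cell layer replicate 1 or 2 for Mat2a, Csf1r, Aif1, Nefl, Slc19a1, Slc1a4 and Slc7a5, without hair cell layer replicate 2 for Ahcyl1, without either supporting cell layer array for Atf4, and with any 1 array left out for Csad and Eif2s1. Among named genes with 2 usable arrays per layer, array medians lost the calls of Csad, Papss2, Ptdss1 and Eif2s1. The scanner software's values lost these and Ctps1, Prx, Mat2a, Mthfd1 and Glud1. Without a filter the calls of Csad, Papss2, Ptdss1, Eif2s1, Ctps1, Mat2a, Ahcyl1, Slc19a1, Nefl, Aif1 and Slc7a5 were lost. The replicate block lost those of Ahcyl1, Csad, Slc19a1, Eif2s1, Mat2a, Nefl and Slc7a5. Cbs, Psph and Shmt2 have no value among probes detected on all 4 arrays, and the replicate block changed no call of Shmt2, Asns or Glul. Whether same-numbered arrays of the layers share an animal or capture is not said. Their replicate differences did not move together (r = -0.002 across probes, which are not independent replicates). With 1 such difference per layer, this cannot decide the question. Normexp background correction was not run.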
